A study of Mus musculus with 3 samples.

Results

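A set of 10 genes that restrain signalling from the T cell receptor (TCR) was followed in activated regulatory T cells: Ptpn2, Ptpn6, Ptpn11, Ptpn22, Csk, Pag1, Cd5, Cd6, Dgka and Dgkz. They were taken from a list by symbol, and all 10 were found among the 55536 genes of the main gene table. Regulatory T cells are CD4 T cells that hold back immune responses and depend on the transcription factor Foxp3. PolyA-selected RNA was sequenced in 3 libraries, which the labels call technical replicates 1, 2 and 3 of 1 biological replicate from a male adult mouse of 4 months. The mouse was of the strain Foxp3CreERT2 x Rosa26YFP, in which an inducible Cre recombinase is made from the Foxp3 locus and a yellow fluorescent reporter sits at Rosa26. The labels trace the primary cells to haematopoietic cells of the bone marrow. The sources used here do not give the sort, the way the cells were activated or whether animals were pooled. Since there is 1 group and no control group, levels, transcript usage and the spread between libraries are reported, and every p-value measures only the spread between these libraries of 1 sample.

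When the TCR is engaged, the kinase Lck phosphorylates the CD3 chains and Zap70, and the signal then runs through adaptors to phospholipase C, diacylglycerol and Ras. The 10 genes act as brakes at successive points of this path. The kinase Csk, recruited to the membrane by the adaptor encoded by Pag1, phosphorylates the inhibitory tail tyrosine of Lck and Fyn. The tyrosine phosphatases encoded by Ptpn22, Ptpn6, Ptpn11 and Ptpn2 remove activating phosphates or act beside cytokine receptors. The surface receptors CD5 and CD6 assemble inhibitory partners, and the diacylglycerol kinases encoded by Dgka and Dgkz turn over the lipid that activates Ras and protein kinase C. In regulatory T cells, TCR signal strength is known to bear on both their development and their suppressive function.

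Before the levels, coding stretches by which transcripts of 5 of these genes differ are shown. The shares given later are of whole transcripts, some of which also differ outside these stretches. Cd6-203, for instance, has 3032 bases and Cd6-202 has 2813. All the stretches come from the GENCODE M21 transcripts on mm10, all lie in coding sequence, and capitals mark the bases that the other transcript lacks or replaces. In the first 4, 12 lower-case bases on each side belong to the neighbouring exons. The Dgka exon at chr10:128731324-128731412, minus strand, is in Dgka-201 and is skipped in Dgka-203. Its 89 bases are not a multiple of a codon, and the annotated reading frame of Dgka-203 ends after 253 codons, against 730 codons in Dgka-201.
Dgka-201 exon: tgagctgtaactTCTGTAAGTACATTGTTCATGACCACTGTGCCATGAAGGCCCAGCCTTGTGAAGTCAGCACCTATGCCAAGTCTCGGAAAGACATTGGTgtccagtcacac
The Cd6 exon at chr19:10792828-10792944, minus strand, is in Cd6-203 and absent from Cd6-202. Its 117 bases hold 39 whole codons, so Cd6-202 keeps the frame with 626 codons against 665 in Cd6-203.
Cd6-203 exon: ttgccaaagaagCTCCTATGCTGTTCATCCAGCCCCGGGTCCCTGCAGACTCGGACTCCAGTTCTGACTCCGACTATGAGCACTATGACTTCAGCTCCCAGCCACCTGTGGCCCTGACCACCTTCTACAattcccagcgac
The Ptpn11 exon at chr5:121144530-121144696, minus strand, starts 12 bases earlier in Ptpn11-201 than in Ptpn11-202, which adds 4 codons.
Ptpn11-201 exon: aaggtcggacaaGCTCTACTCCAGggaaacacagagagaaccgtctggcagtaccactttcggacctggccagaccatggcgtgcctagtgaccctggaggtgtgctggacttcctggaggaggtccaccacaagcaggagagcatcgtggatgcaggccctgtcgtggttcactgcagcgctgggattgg
The Ptpn22 exon at chr3:103903370-103903485, plus strand, lacks its first 8 bases in Ptpn22-204. That transcript is annotated as a target of nonsense-mediated decay, with 715 codons against 802 in Ptpn22-201, and has 23 exons against 21.
Ptpn22-201 exon: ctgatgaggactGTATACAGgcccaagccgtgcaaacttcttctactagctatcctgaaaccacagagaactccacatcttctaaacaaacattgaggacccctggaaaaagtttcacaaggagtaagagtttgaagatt
Ptpn6 begins at either of 2 first coding exons, at chr6:124732946-124732953 in Ptpn6-202 and at chr6:124738499-124738512 in Ptpn6-203, both on the minus strand. The lower-case bases are the start of the second coding exon, which they share.
Ptpn6-202 start: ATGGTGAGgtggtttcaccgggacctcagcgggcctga
Ptpn6-203 start: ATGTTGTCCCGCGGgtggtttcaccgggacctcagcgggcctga

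Depth was 10981924 gene fragments in replicate 1, 9700630 in replicate 2 and 6667391 in replicate 3, the shallowest library. T cell markers were abundant, with the 6 genes of that list summing to 11266, 10646 and 7774 TPM (transcript abundance per length, scaled to a fixed total within each library), and all 6 were lower in replicate 3. Foxp3 was at 29.5, 28.7 and 49.8 TPM, highest in replicate 3, and all 6 markers of regulatory T cells reached 1 TPM in every library. Those 6 summed to 2325, 2578 and 1984 TPM. All 6 differed between libraries by the test described below, which gives no direction, beside 65.3% of all tested genes. Set against replicates 1 and 2 pooled, in counts scaled to library size, 4 of them were lower in replicate 3 and Foxp3 and Ctla4 were higher. Among the lower, Tnfrsf18 was at 663, 587 and 368 TPM, and Il2ra at 239, 272 and 237 TPM. Markers of other cells also moved between libraries. The 8 B cell markers summed to 1797, 1488 and 3117 TPM, mostly the immunoglobulin genes Igkc and Ighm. Igkc alone carried the high sum of replicate 3, at 746, 282 and 2215 TPM, and the other 7 summed to 1051, 1206 and 901 TPM, lowest in replicate 3. The 6 erythroid markers summed to 798, 5.30 and 23.4 TPM, and the 4 plasma cell markers to 96.7, 48.3 and 151 TPM. The 10 myeloid markers summed to 26.7, 9.88 and 27.9 TPM, the 4 dendritic cell markers to at most 3.27 TPM, the 4 markers of NK or innate lymphoid cells to at most 3.28 TPM, the 2 CD8 T cell markers to at most 16.2 TPM and the 5 stromal markers to at most 2.37 TPM. Ncr1 was at 0 in replicates 1 and 2, S100a8 and S100a9 were at 0 in replicate 2, and Pdgfrb was at 0 in all 3. The part of these cells in the spread described below was not tested.

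All 10 genes reached 1 TPM in every library. Their median level was 118 TPM, against a median of 20.9 TPM over the 9988 protein-coding genes detected at 1 TPM in all 3 libraries, and 8 of the 10 lay above that median. Mean levels spanned 53.7-fold. The order by mean was Cd6, Cd5, Ptpn22, Dgka, Ptpn6, Csk, Dgkz, Ptpn2, Pag1 and Ptpn11. At 3 steps the neighbours had ranges that did not overlap between the libraries, namely Dgka above Ptpn6, Ptpn2 above Pag1 and Pag1 above Ptpn11. Within the leading 4 and within the middle 4 the ranges of neighbours overlapped. In replicate 3 Ptpn22 stood above Cd6 and Cd5, whereas in replicates 1 and 2 it lay below both receptors. Ptpn6 lay above Ptpn2 in replicates 1 and 2, and only just below it in replicate 3, at 75.6 against 76.9 TPM. In a second deposited transcript table Ptpn6 was the higher in replicate 3, at 50.9 against 44.3 TPM.

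**Figure D1:**
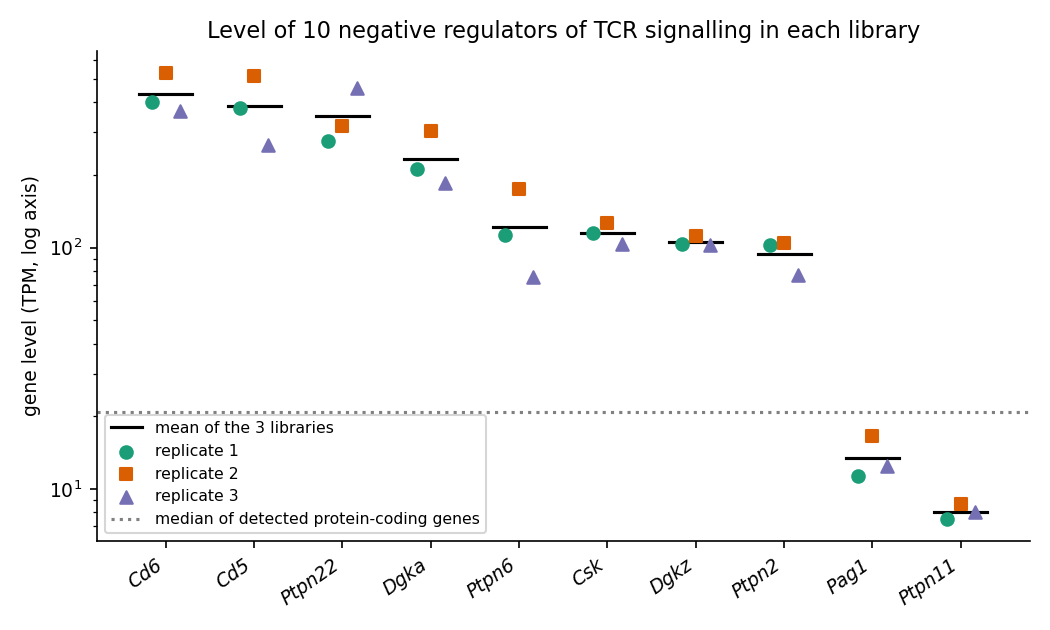
Level of each gene in TPM on a log axis, with 1 point per library and a bar at the mean of the 3. In the mean, 8 genes lie above the dotted line at 20.9 TPM, the median of detected protein-coding genes, and Pag1 and Ptpn11 lie below it in all 3 libraries.

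Csk (ENSMUSG00000032312.7; mm10 chromosome 9, 57626646 to 57653631, minus strand) had 115, 127 and 104 TPM in replicates 1, 2 and 3, from 1741, 1583 and 945 fragments. These values lay close together, with a mean of 115 ± 11.5 TPM (SD, n = 3). Pag1 (ENSMUSG00000027508.15; chromosome 3, 9687479 to 9833679, minus strand) had 11.3, 16.5 and 12.4 TPM, from 379, 351 and 286 fragments. By all transcripts, Csk RNA was thus 10.1, 7.68 and 8.35 times as high as that of Pag1, which encodes its membrane adaptor. The size of that gap depended on what was counted. From protein-coding transcripts alone, Csk had 99.9, 108.9 and 94.55 TPM and Pag1 had 4.62, 4.66 and 5.79 TPM. Against its substrate Lck, Csk stood at a ratio of 0.0872, 0.0888 and 0.115, and against Ptprc, which encodes the phosphatase CD45 that removes the mark Csk places, at 0.129, 0.123 and 0.139. Both ratios were highest in replicate 3, where Lck and Ptprc were at their lowest.

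Among the 4 phosphatases, Ptpn22 (ENSMUSG00000027843.13; chromosome 3, 103859795 to 103912247, plus strand) was the most abundant by all its transcripts. It encodes the phosphatase that binds Csk and acts on Lck and Zap70. It had 276, 319 and 460 TPM in replicates 1, 2 and 3, and the value in replicate 3 was the highest in this gene. Set against Lck, Ptpn22 stood at 0.210, 0.224 and 0.508, so its ratio to that substrate was also highest in replicate 3. Ptpn6 (ENSMUSG00000004266.15; chromosome 6, 124720707 to 124738714, minus strand) encodes SHP-1, which inhibitory receptors recruit. It had 113, 175 and 75.6 TPM, the widest relative spread of the 10 genes, with a coefficient of variation of 41.4% around a mean of 121 TPM. Replicate 2 was high and replicate 3 low, and its highest value was 2.32 times its lowest. From protein-coding transcripts alone, Ptpn22 had 117, 132 and 162 TPM and Ptpn6 had 111, 172 and 66.6 TPM. On that count Ptpn6 was the higher in replicate 2, and Ptpn22 in replicates 1 and 3.

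Ptpn11 (ENSMUSG00000043733.14; chromosome 5, 121130533 to 121191397, minus strand) encodes SHP-2, which is recruited to PD-1 and also promotes Ras signalling from growth factor receptors. It was the least abundant of the 10 genes, at 7.52, 8.67 and 8.0 TPM, and 24.8% of detected protein-coding genes lay below its mean. Ptpn6 was 15.1, 20.2 and 9.45 times as high as Ptpn11, its closest relative by structure, since both phosphatases carry paired SH2 domains. Ptpn2 (ENSMUSG00000024539.17; chromosome 18, 67665511 to 67724595, minus strand) encodes TC-PTP, which acts on Lck and Fyn and on the cytokine receptor kinases Jak1 and Jak3. It had 103, 104 and 76.9 TPM, and replicate 3 was the low library.

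The receptors Cd5 and Cd6 lie side by side on chromosome 19 and were the highest members by mean. Cd5 (ENSMUSG00000024669.8; 10717116 to 10739002, minus strand) had 378, 516 and 267 TPM in replicates 1, 2 and 3. Cd6 (ENSMUSG00000024670.17; 10789341 to 10830058, minus strand) had 402, 529 and 368 TPM. Both were highest in replicate 2 and lowest in replicate 3, and Cd6 was above Cd5 in every library of the main table, although their ranges overlap. That order did not hold throughout in the other tables. In the second transcript table Cd5 had 198, 280 and 161 TPM and Cd6 had 188, 259 and 195 TPM, so Cd6 was the higher only in replicate 3. From whole-number counts per coding base Cd5 averaged 571 ± 169 TPM and Cd6 546 ± 116 TPM (SD, n = 3 each), a gap within their spread. Against Cd3e, a chain of the receptor complex they sit beside, Cd5 stood at 0.323, 0.390 and 0.329 and Cd6 at 0.344, 0.400 and 0.454. The ratio of Cd6 to Cd3e was highest in replicate 3 and that of Cd5 in replicate 2.

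Of the 2 diacylglycerol kinases, Dgka (ENSMUSG00000025357.8; chromosome 10, 128720134 to 128744855, minus strand) had 211, 303 and 185 TPM. Dgkz (ENSMUSG00000040479.11; chromosome 2, 91932824 to 91975864, minus strand) had 103, 112 and 103 TPM, the tightest relative spread of the 10 genes, with a coefficient of variation of 4.60%. Dgka exceeded Dgkz in each library, by 2.05, 2.71 and 1.80 times. The size of that gap depended on what was counted: from whole-number counts per coding base Dgka averaged 415 TPM and Dgkz 52.0 TPM, and from protein-coding transcripts 187 TPM and 9.77 TPM. Against Rasgrp1, the Ras activator that diacylglycerol switches on, Dgka stood at 4.34, 5.29 and 5.00.

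These levels count all annotated transcripts of a gene, and the shares of transcripts annotated as protein-coding differed widely among the members. Protein-coding transcripts made up 96.1% of the mean level of Ptpn6, 95.8% of Cd5 and nearly all of Ptpn2. They made up 39.0% in Ptpn22, 37.4% in Pag1 and 9.22% in Dgkz. Over 6621 protein-coding genes with at least 2 transcripts and at least 10 TPM, the median share was 83.8%, and 5 of the 10 members lay below it. Of those genes, 1.51% had a smaller share than Dgkz, 10.8% a smaller share than Ptpn22 and 10.2% a smaller share than Pag1.

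**Figure D2:**
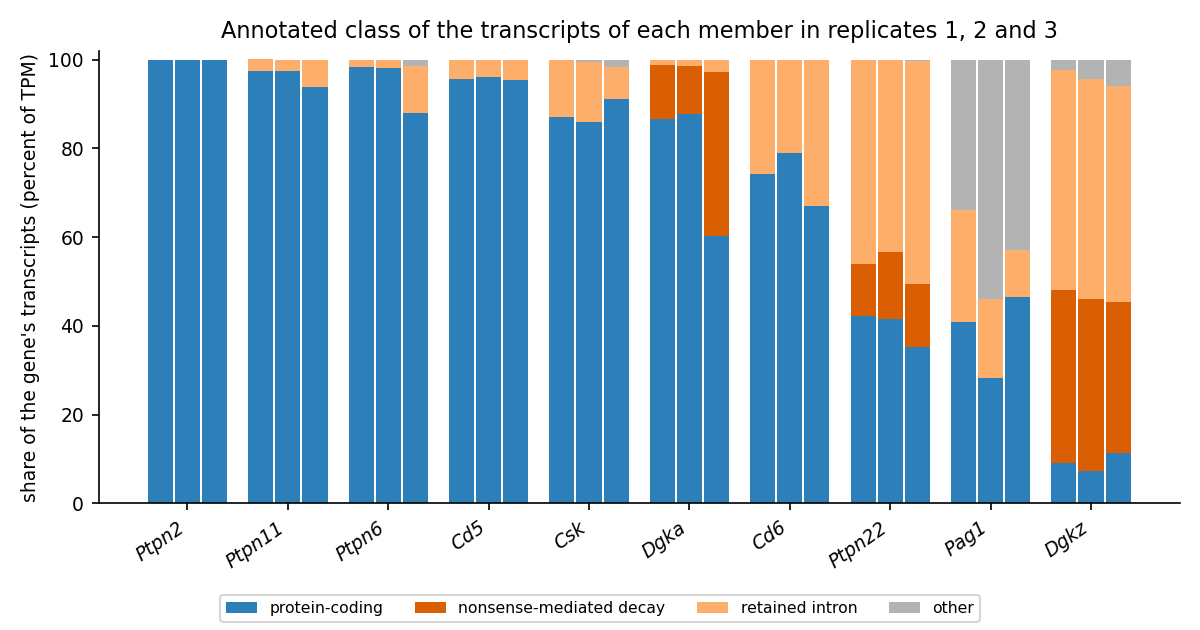
Percent of each gene's TPM in transcripts annotated as protein-coding, as targets of nonsense-mediated decay, as retaining an intron or as another class, with 1 bar for each of replicates 1, 2 and 3. Ptpn22, Pag1 and Dgkz are mostly of other classes than protein-coding in every library, and the decay class of Dgka is 37.0% in replicate 3 against 12.3% and 10.9% in replicates 1 and 2.

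For Dgkz, the leading transcript was Dgkz-212, a target of nonsense-mediated decay with a reading frame of 81 codons, at 38.6%, 38.2% and 32.1% of the gene. The short retained-intron transcript Dgkz-209 followed at 32.0%, 27.5% and 23.2%, and Dgkz-208, also of that class, averaged 8.25%. The protein-coding transcripts of Dgkz summed to 9.52, 8.20 and 11.6 TPM. Short transcripts weigh heavily in such shares, since TPM divides by length: Dgkz-209 drew only 89.3, 69.6 and 40.8 fragments, against 1046, 919 and 528 for Dgkz-212.

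For Ptpn22, the only protein-coding transcript, Ptpn22-201, held 42.3%, 41.5% and 35.2%, or 117, 132 and 162 TPM. The retained-intron transcripts Ptpn22-205, Ptpn22-202 and Ptpn22-203 averaged 19.4%, 16.9% and 9.98%. In the second transcript table they averaged 19.8%, 9.81% and 18.7%, so Ptpn22-203 lay above Ptpn22-202 there. Ptpn22-204, which lacks the 8 bases shown above, held 11.7%, 15.2% and 14.1%. All of these were higher in TPM in replicate 3 than in replicates 1 and 2, the protein-coding transcript included.

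For Pag1, the protein-coding transcript Pag1-204 held 40.8%, 28.2% and 46.6%, beside a processed transcript without reading frame, Pag1-202, at 33.9%, 54.0% and 42.8%. The retained-intron transcript Pag1-205 averaged 17.9%. Most Pag1 fragments nevertheless fell to Pag1-204, at 334, 277 and 254, a transcript of 8256 bases against 1158 in Pag1-202. Counting protein-coding transcripts only, the order changed: Cd5 came before Cd6 and Dgka, then Ptpn22, and Dgkz, Ptpn11 and Pag1 last, at 9.77 ± 1.71, 7.76 ± 0.607 and 5.02 ± 0.664 TPM (SD, n = 3 each).

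**Figure D3:**
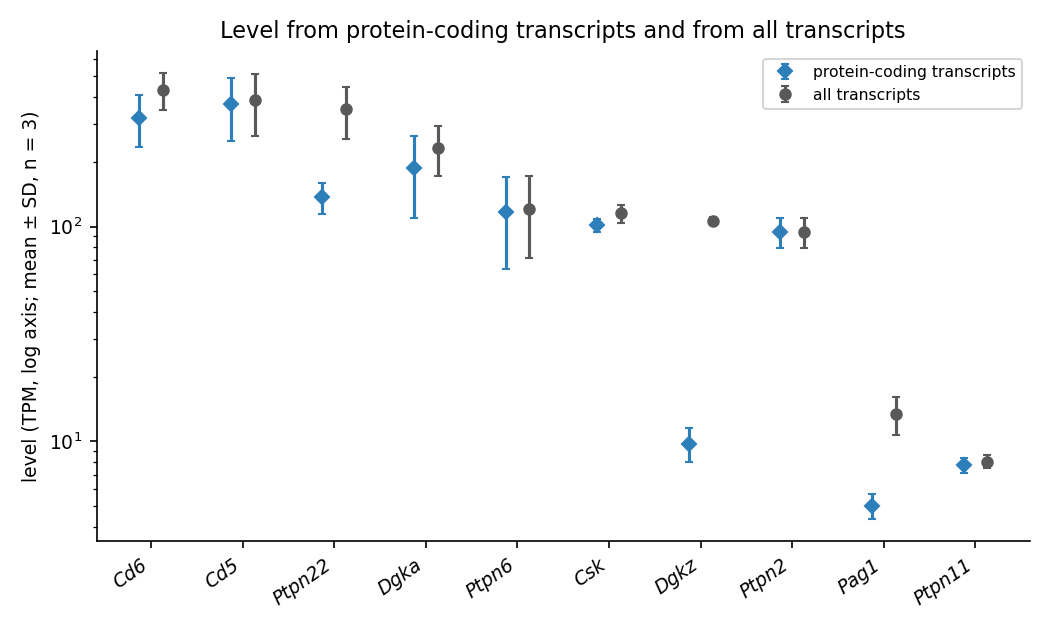
Mean level of each gene in TPM on a log axis from its protein-coding transcripts (diamonds) and from all its transcripts (circles), with the SD over 3 libraries as bars. The means lie close together for Ptpn2, at 94.5 TPM in both, and far apart for Dgkz, at 9.77 against 106 TPM.

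The other members were led by a protein-coding transcript. Ptpn2-201, of 382 codons, held 91.3%, 93.6% and 93.2% of Ptpn2. Set against it alone, Ptpn2-203, which has 406 codons, took 7.62%, 6.41% and 4.24% of the pair. Csk-209 and Csk-201 encode the same protein and averaged 63.1% and 13.2% of Csk, beside Csk-202 (retained intron) at 9.42% and Csk-206 at 7.14%. Cd5-201 held 83.1%, 84.2% and 79.7%, and Cd5-202, an annotated model of only 4 exons, averaged 8.77%.

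Cd6-203 held 59.0%, 65.6% and 56.5% of Cd6, and Cd6-202, without the 39 codons shown above, held 14.9%, 13.3% and 10.5%. Of the pair, Cd6-202 was 20.2%, 16.9% and 15.7%, and 16.2%, 13.1% and 11.5% in the second transcript table, which the authors computed directly from the reads. In both tables the exon was thus mostly kept, and the share of its skipping was lowest in replicate 3. The retained-intron transcripts Cd6-201 and Cd6-206 averaged 13.1% and 10.7%, and 6.80% and 10.3% in the second table.

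Dgka-203, the decay target that skips the 89-base exon, held 12.3%, 10.9% and 37.0% of Dgka, and Dgka-201 held 86.6%, 87.7% and 60.2%. Both transcripts have 24 exons, so they differ elsewhere as well. Replicate 3 stood apart from the others, with 963 estimated fragments for Dgka-203 (posterior SD 106), against 598 (119) and 626 (139) in replicates 1 and 2. The second table gave 14.5%, 12.7% and 29.8%, again with replicate 3 highest. Protein-coding Dgka therefore stood at 183, 266 and 111 TPM. No test was made of transcript shares, since transcript counts are estimates that share reads.

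Ptpn6 was led by Ptpn6-202, at 74.2%, 65.4% and 53.6%. By posterior mean TPM its share was only 45.8%, 43.2% and 22.3%, and in replicate 3 it lay below Ptpn6-211, at 25.4%. Ptpn6-211 is an annotated model of 120 bases, named after its values were seen. Its estimate was 0 fragments in all 3 libraries, against 1534, 1721 and 451 for Ptpn6-202. Ptpn6-203 held 12.3%, 24.1% and 25.6%, and Ptpn6-201, which has the same coding sequence as Ptpn6-203, averaged 9.80%. The share of the upstream start among these 3 was 24.5%, 33.4% and 39.2%, and 30.1%, 28.3% and 37.7% in the second table. Replicate 3 was highest in both, while replicates 1 and 2 changed places. The estimates for Ptpn6-203 were 256, 636 and 216 fragments in replicates 1, 2 and 3, with posterior SDs of 66.82, 92.45 and 56.47. For Ptpn11, the longer form Ptpn11-201 was 11.7%, 12.2% and 23.5% of its pair with Ptpn11-202, but 18.5%, 30.4% and 52.9% in the second table. The 2 tables thus placed Ptpn11-201 at different levels. The estimates for Ptpn11-201 rested on 41.3, 40.5 and 51.2 fragments, with posterior SDs of 26.99, 42.96 and 30.41 fragments.

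**Figure D4:**
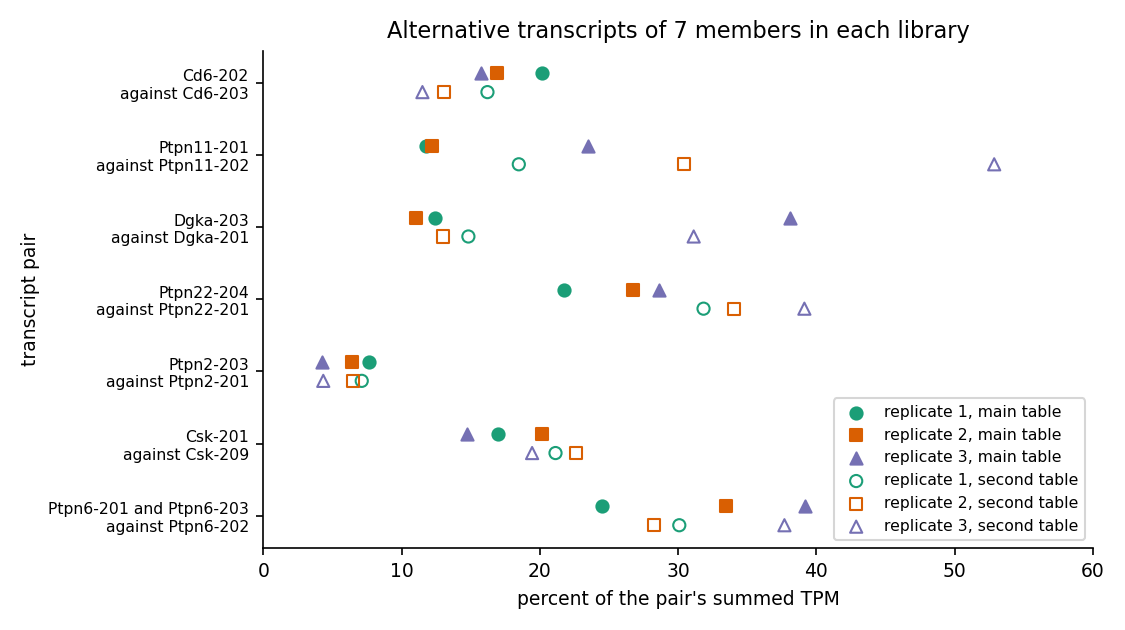
Percent that an alternative transcript takes of the summed TPM of itself and the transcript it is set against, for 7 of the genes. Filled points are the main table and open points the second table, with 1 symbol per replicate. Dgka-203 lies at 38.1% in replicate 3 of the main table against 12.4% and 11.05% in replicates 1 and 2, and the tables differ most for Ptpn11-201.

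Whether each gene differed between the libraries was tested on fragment counts, with a chi-square test against the scaled library sizes and Benjamini-Hochberg adjustment over all 12997 genes whose counts averaged 10 or more. The test allows for sampling noise only and compares libraries, not conditions. Of the 10 genes, 8 differed between libraries at an adjusted p under 0.05, beside 65.3% of all genes tested and 74.3% of those averaging 50 or more counts, so a call was the usual outcome at these depths. The ratio of highest to lowest library had a median of 1.37 over the 10 genes, against 1.44 over all tested genes and 1.34 over the 8483 genes averaging 100 or more counts. With the variance widened by edgeR's trended dispersion, which was estimated from these same libraries, 0 of the 10 genes and 1.31% of all genes passed. Under that model Ptpn6 alone had an unadjusted p under 0.05, at 0.0187. The share of all tested genes under that unadjusted cut is not given here, so this and later counts at that cut have no background. Under the common dispersion 0 of the 10 passed, beside 1.99% of all genes.

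Relative to replicates 1 and 2 pooled, 6 of the genes that differed were lower in replicate 3 in CPM and 2 were higher, against 32.8% and 32.6% of all tested genes called in those directions. Ptpn6 differed most downward, with 189, 266 and 113 CPM (counts scaled to library size) and a log2 ratio of -0.99 (counting SE 0.06; adjusted p = 2.61e-102). The log2 ratio was -0.71 for Cd5 (counting SE 0.03; adjusted p = 6.50e-151), -0.42 for Dgka, -0.41 for Ptpn2, -0.30 for Cd6 and -0.19 for Csk. Ptpn22 was higher in replicate 3, with 424, 464 and 693 CPM and a log2 ratio of 0.65 (counting SE 0.03; adjusted p = 5.22e-138). The ratio was 0.28 for Pag1 (counting SE 0.10; adjusted p = 0.0345), but its direction depends on the scale: in TPM, replicate 3 lay below replicate 2, at 12.4 against 16.5. That call of Pag1 was lost without a filter on low counts (adjusted p = 0.0634), with DESeq2's size factors (adjusted p = 0.0945), in the second transcript table (adjusted p = 0.0865), without replicate 1 (adjusted p = 0.0514) and without replicate 3 (adjusted p = 0.793). Without replicate 3, Csk (adjusted p = 0.824) and Ptpn2 (adjusted p = 0.137) also did not pass.

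Ptpn11 and Dgkz did not pass, with adjusted p of 0.771 and 0.852. Their highest library exceeded the lowest by 1.06-fold and 1.02-fold in CPM. Of the protein-coding transcripts alone, Dgkz did pass (adjusted p = 0.000232) and Csk did not (adjusted p = 0.221), and by the whole-number counts Ptpn11 did (adjusted p = 0.0473). The protein-coding counts are sums of estimates that share reads, and the test left out the error of assigning those reads. For Dgkz-202 the estimates were 176.48, 49.85 and 161.37 fragments in replicates 1, 2 and 3, with posterior SDs of 57.22, 32.53 and 45.96. Without replicate 3, 5 of the 10 genes passed, beside 31.9% of all genes, and 7 and 8 passed without replicate 1 or 2, beside 51.5% and 53.9%. With no filter 7 passed, beside 32.9% of all genes, and with a mean count of 50 or more 8 did, beside 74.3%. With DESeq2's factors 7 passed, beside 65.4%, and with library totals 8, beside 65.3%. The second transcript table gave 7, beside 60.4%, the whole-number counts 9, beside 72.7%, protein-coding genes alone 8, beside 69.4%, and protein-coding transcripts alone 8, beside 70.2%. The sums of T cell, plasma cell and erythroid markers and the level of Igkc differed between the same libraries, as given above, and their part in these differences was not tested. In bulk RNA, fewer cells of a type and less of a transcript per cell cannot be told apart.

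**Figure D5:**
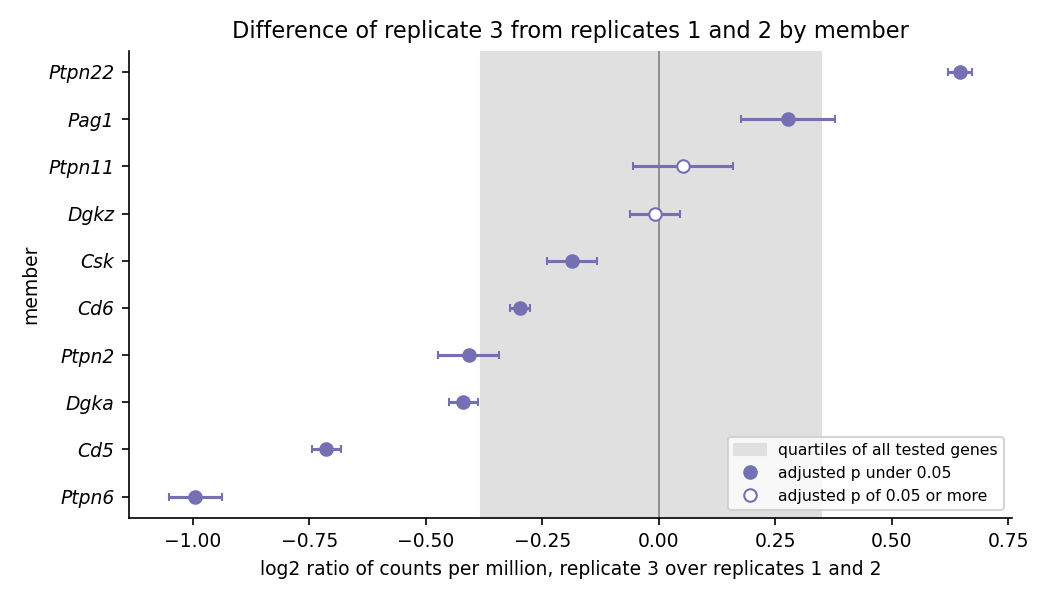
Log2 ratio of CPM in replicate 3 over replicates 1 and 2 pooled, with bars of 1 counting SE, filled where the adjusted p over the 3 libraries was under 0.05. The grey band spans the quartiles of all tested genes, from -0.38 to 0.35, and holds Csk, Cd6, Pag1, Dgkz and Ptpn11, while Ptpn6, Cd5, Ptpn2 and Dgka lie below it and Ptpn22 above.

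The main table also holds a posterior mean TPM with an interval for each library, at a level the sources do not state. The intervals centre on the posterior mean, which was below the TPM for 9 of the genes, so they are used only among themselves. For Cd5 they ran from 307 to 325, from 407 to 429 and from 197 to 215 TPM in replicates 1, 2 and 3, and were separate. For Ptpn6 they ran from 103 to 210, from 152 to 288 and from 68.9 to 215 TPM, and overlapped in all 3 libraries. Ptpn6 was the gene whose posterior mean lay above its TPM, at 148, 210 and 131 TPM. Of that posterior mean, Ptpn6-211, with an estimate of 0 fragments, held 18.3%, 15.0% and 25.4%. Ptpn6, Dgka and Dgkz each share exon bases with a gene on the opposite strand, at most 222 bases, and those neighbours stayed at or below 6.48 TPM. The sources do not state whether the counting used strand.

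The genes on which these brakes act were expressed well above the detection level. All 20 substrates and downstream genes reached 1 TPM in every library, with a median of 210 TPM. The highest were Lck at 1215 ± 275, Cd3g at 1124 ± 421, Cd3e at 1101 ± 263 and Ptprc at 888 ± 141 TPM (SD, n = 3 each). The lowest were Jak3, Stat5a and Stat5b, of the cytokine path on which Ptpn2 acts, at 25.1 ± 6.92, 31.2 ± 2.86 and 33.3 ± 3.93 TPM. Jak1, of the same path, was above the median of the list, at 299 ± 50.3 TPM. Of the 20, 18 differed between libraries in the sampling test, 13 lower and 5 higher in replicate 3, beside 65.3%, 32.8% and 32.6% of all tested genes, and 0 did with the trended dispersion (1 at an unadjusted p under 0.05).

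Of 32 further negative regulators, 27 reached 1 TPM in every library, with a median of 44.0 TPM. The highest were Inpp4b, a phosphoinositide phosphatase, at 370 ± 50.7 TPM, the adaptor gene Sh2d2a at 205 ± 38.3, Dok2, an adaptor that recruits the Ras brake RasGAP, at 203 ± 33.7, and Ubash3a, which dampens Zap70, at 195 ± 23.8 TPM. The lowest above 1 TPM were Spred1 and Nf1, both brakes on Ras, at 1.21 ± 0.277 and 1.30 ± 0.330 TPM, and the receptor phosphatase Ptprj at 3.68 ± 0.359 TPM. Of 30 tested, 26 differed between libraries, 16 lower and 10 higher in replicate 3, beside the same shares of all tested genes (65.3%, 32.8% and 32.6%). With the trended dispersion 1 did, Tnfaip3, which encodes the ubiquitin-editing brake A20, at 22.2, 35.3 and 109 TPM (adjusted p = 4.73e-10). Tnfaip3 was named after its values were seen.

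Relatives of the members were mostly lower. Of 22 genes of the same families, 13 reached 1 TPM in every library, with a median of 3.53 TPM. The highest were the phosphatase genes Ptpn7, Ptpn18 and Ptpn1, at 163 ± 72.5, 154 ± 16.4 and 129 ± 12.2 TPM, and Matk, which encodes the relative of Csk, at 59.9 ± 11.04 TPM. Ptpn7 and Ptpn12 also count among the 32 negative regulators. The lowest above 1 TPM were Dgkh at 1.34 ± 0.787, Ptpn3 at 1.34 ± 0.673 and Ptpn21 at 2.87 ± 0.585 TPM. Of the other diacylglycerol kinase genes listed, Dgkd was the highest, at 31.1 ± 5.54 TPM, and was looked up after its values were seen. Of 16 tested relatives, 12 differed between libraries, beside 65.3% of all tested genes, 7 lower and 5 higher in replicate 3 (32.8% and 32.6% of all), and 0 with the trended dispersion (1 at an unadjusted p under 0.05).

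Among 12 partner genes, 10 reached 1 TPM in every library. The adaptor gene Lime1, whose product binds Csk, was highest at 356 ± 61.0 TPM, followed by Slc9a3r1 and Ezr, which link Pag1 protein to the cytoskeleton, at 170 ± 45.0 and 111 ± 18.7 TPM. Pdcd1, which encodes PD-1, had 147, 126 and 41.9 TPM and was low in replicate 3. Alcam, which encodes a ligand of CD6, was at 5.20 ± 0.900 TPM, Sos1 at 3.92 ± 0.548 and Gab3, an adaptor gene, at 12.1 ± 1.54 TPM. Lime1 stood above Csk in each library, whereas Pag1 stood below it. Of 11 tested partners, 9 differed between libraries, 5 lower and 4 higher in replicate 3, beside 65.3%, 32.8% and 32.6% of all tested genes, and 0 with the trended dispersion (1 at an unadjusted p under 0.05).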

How the data were processed

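Per the file headers, the authors deposited for each library expected counts, TPM and percent of the gene's TPM per transcript on GENCODE M21 and mm10, with posterior SDs and interval bounds. These came from transcriptome alignments, and the columns are those RSEM writes. A second deposited table holds estimated counts and TPM (columns as kallisto writes), and a gene table whole-number counts on M4. The sources do not name the programs or strandedness. Expected counts were rounded. edgeR 4.0.16 (R 4.3.3) gave TMM factors, from genes averaging 10 or more counts, and dispersions. DESeq2 1.42.0 gave alternative size factors. The test was tried on simulated counts. Ratios between genes are of TPM. Entries naming no gene (0.0873% to 0.166% of fragments) were left out. Counting SEs cover counting error only, since reads carried no stated molecular identifiers. All members were named. Of each other list, the 4 highest and the 3 lowest above 1 TPM were, with transcripts averaging at least 10% in either table. Members and lists were chosen with earlier results of these data known.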

Additional observations from a re-analysis of the deposited data

How the results depend on the processing

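The variance model decided the calls between libraries. With sampling noise only, 8 of the 10 genes and 8493 of all genes passed. With the trended dispersion 0 of the 10 and 170 of all genes did, and with the common dispersion 0 of the 10 and 258 of all genes. Among the further negative regulators 26 passed by sampling noise and 1 under either dispersion, and 0 of the substrates, 0 of the relatives and 0 of the partners passed under either. Leaving out 1 library gave 5 to 8 of the 10 genes, 4187 to 6994 of all genes, 15 to 22 of the further regulators, 6 to 11 of the relatives, 6 to 9 of the partners and 13 to 17 of the substrates, the lowest counts without replicate 3 (for the partners also without replicate 2). Under the other scalings, filters and tables, the members' count stayed within 7 to 9. The median member level was 68.5 TPM in the second transcript table and 180 TPM from whole-number counts per coding base, against 118 TPM in the main table. Over all genes the second table stood at a median of 0.596 of the main one. The cause was not tested. The protein-coding-only settings were chosen after seeing the data. No paired analysis was possible because the 3 libraries form 1 group, so no other group shares their replicate numbers. With 3 libraries of 1 sample, the spread says nothing of other animals.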

Other observations

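The whole-number gene counts and the fragment estimates of the main table stood in different ratios for different members. Over all tested genes the whole-number count was 1.18, 1.19 and 1.22 times the fragment estimate in replicates 1, 2 and 3 at the median. For Pag1 the ratio was 0.156, 0.137 and 0.325 and for Ptpn11 0.641, 0.497 and 0.654, the lowest among the 10 genes. Coding sequence makes up 13.4% of the exon bases of Pag1 and 23.9% of those of Ptpn11, the smallest shares among the 10. For Ptpn6 the ratio was 1.91, 1.92 and 2.04, and coding sequence makes up 67.9% of its exon bases, the largest share. The ratios did not follow the coding shares throughout: Dgkz, with 63.4% coding bases, stood at 1.39, 1.40 and 1.54, below Ptpn2, with 39.6% and ratios of 1.62, 1.65 and 1.73. From whole-number counts per coding base, Pag1 stood at 6.3 TPM and Ptpn11 at 11.8 TPM, so that Ptpn11 lay above Pag1, the reverse of the order in the main table.

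Replicate 3 also held the highest levels of Ctla4, with 190, 250 and 612 TPM in replicates 1, 2 and 3, and of Cblb, a ubiquitin ligase that restrains TCR signalling, with 30.03, 33.93 and 48.86 TPM. Ptpn22 and Tnfaip3 were likewise highest there, whereas Pdcd1 and Izumo1r, at 844, 999 and 450 TPM, were lowest there. Under the trended dispersion, Ctla4 passed (adjusted p = 4.09e-05), and Pdcd1 (adjusted p = 0.0960), Izumo1r and Cblb did not. These genes were picked after their values were seen.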
